A study of Rattus norvegicus with 12 samples.

Results

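The integrin subunits described here are 10 genes, Itgb1, Itga3, Itga6, Itga7, Itgb4, Itga1, Itga5, Itgav, Itgb3 and Itgb5, taken as every probe set that the array annotation assigns to their symbols. These were 20 of the 31042 probe sets other than array controls, with 4 for Itga6, 3 each for Itga7, Itgav and Itgb5, 2 for Itgb1 and 1 for each other gene. The arrays compared WB311, a rapidly dividing, tumorigenic and rapamycin-resistant rat liver epithelial line, with WB-F344, the non-tumorigenic and rapamycin-sensitive diploid line from an adult male Fischer rat from which it arose spontaneously. The 4 groups of 3 plates were WB311 with 50 nM rapamycin, WB311 with DMSO vehicle, WB-F344 with 50 nM rapamycin and WB-F344 with DMSO vehicle, all exposed for 24 hr. Rapamycin is an inhibitor of the kinase mTOR. The doubling time was 15.5 hr for WB311 and 42 hr for WB-F344, so line, tumorigenicity, growth rate and drug response cannot be told apart. Each line was represented by cultures of 1 cell line. The limma p-values rest on the spread between plates, pooled over the 4 groups and so over both lines. They do not measure the spread between independently derived lines.

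Integrins are receptors of the cell surface, each made of an alpha and a beta chain, that bind the extracellular matrix outside the cell and the actin or keratin cytoskeleton inside it. The pair of chains sets the ligand: Itga3, Itga6 and Itga7 form laminin receptors, Itga1 forms a collagen receptor, and Itga5 and Itgav form receptors for fibronectin, vitronectin and osteopontin. Itgb1 is the beta chain shared by most of them, while Itgb4 pairs with Itga6 in hemidesmosomes and Itgb3 and Itgb5 pair with Itgav. In liver, integrins link parenchymal and bile duct cells to the matrix and are known for their part in fibrosis and tumor spread.

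Promoter sequences were read from the RefSeq table for the build GRCr8, which held 6 of the 10 genes, namely Itga1, Itga3, Itga5, Itgav, Itgb1 and Itgb5. The 250 bases before the listed start are printed for Itga3 and Itgb5, which rose with rapamycin in WB-F344 cells, and for Itga1, which had the largest integrin difference between the vehicle groups of the lines. All are on the minus strand, at chr10:80518902-80519151 for Itga3, chr11:80449374-80449623 for Itgb5 and chr2:48545284-48545533 for Itga1, and are written in the direction of transcription with matches to the GC box motif GGGCGG, on either strand, in capitals. The windows of Itga3 and Itga1 lie wholly and partly inside the annotated span of their gene, which has further transcripts.
Itga3: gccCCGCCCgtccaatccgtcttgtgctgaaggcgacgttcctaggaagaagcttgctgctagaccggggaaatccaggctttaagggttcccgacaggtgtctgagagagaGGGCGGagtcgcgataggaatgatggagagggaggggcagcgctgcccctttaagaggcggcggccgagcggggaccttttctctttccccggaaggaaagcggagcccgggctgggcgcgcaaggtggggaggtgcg
Itgb5: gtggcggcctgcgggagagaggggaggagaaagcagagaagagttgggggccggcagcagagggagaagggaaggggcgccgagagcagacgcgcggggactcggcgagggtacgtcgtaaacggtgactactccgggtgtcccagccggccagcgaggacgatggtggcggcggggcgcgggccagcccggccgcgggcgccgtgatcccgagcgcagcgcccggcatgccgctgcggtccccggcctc
Itga1: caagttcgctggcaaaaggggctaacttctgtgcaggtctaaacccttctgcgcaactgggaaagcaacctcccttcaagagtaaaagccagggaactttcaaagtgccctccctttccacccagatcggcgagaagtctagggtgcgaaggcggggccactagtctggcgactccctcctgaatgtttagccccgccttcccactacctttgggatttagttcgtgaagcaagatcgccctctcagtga
The window of Itga3 held 2 GC boxes and those of Itgb5 and Itga1 held 0, while 30.5% of the 33469 windows of this length in the table held at least 1. Of the windows not printed, Itgb1 had 4, Itgav 2 and Itga5 1. The AP-1 motif TGANTCA, the E-box CACGTG and the TATA box TATAAA, searched on both strands, were in none of the 6 windows and in 6.34%, 5.59% and 12.9% of all windows. The window of Itgb5 held none of the motifs searched, so it could share none with that of Itga3.

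Values are Robust Multiarray Average intensities on a linear scale, which can be compared between plates for 1 probe set but not between probe sets. The median intensity of an array lay between 59.5 and 62.9. A probe set was tested where its mean reached 100 in at least 1 of the groups compared, and was called where limma gave a Benjamini-Hochberg adjusted p under 0.05 over all probe sets tested and a fold change of at least 1.2. Of the 20 integrin probe sets, 15 reached 100 in at least 1 group, and they covered 9 of the 10 genes. Both WB-F344 plates numbered 2 stood apart from the other plates of that line: the log2 signal of the 3′ minus the 5′ Gapdh control probe set was 0.17 with rapamycin and 0.34 with vehicle on these plates, and lay between -0.12 and -0.04 on the other 4 WB-F344 plates. Whether this 3′ to 5′ signal had a part in the results below was not tested. Fits without both plates were run, and results that turned on these plates are given without them. In bulk RNA, fewer cells that express a gene and less RNA per cell cannot be told apart.

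**Figure D1:**
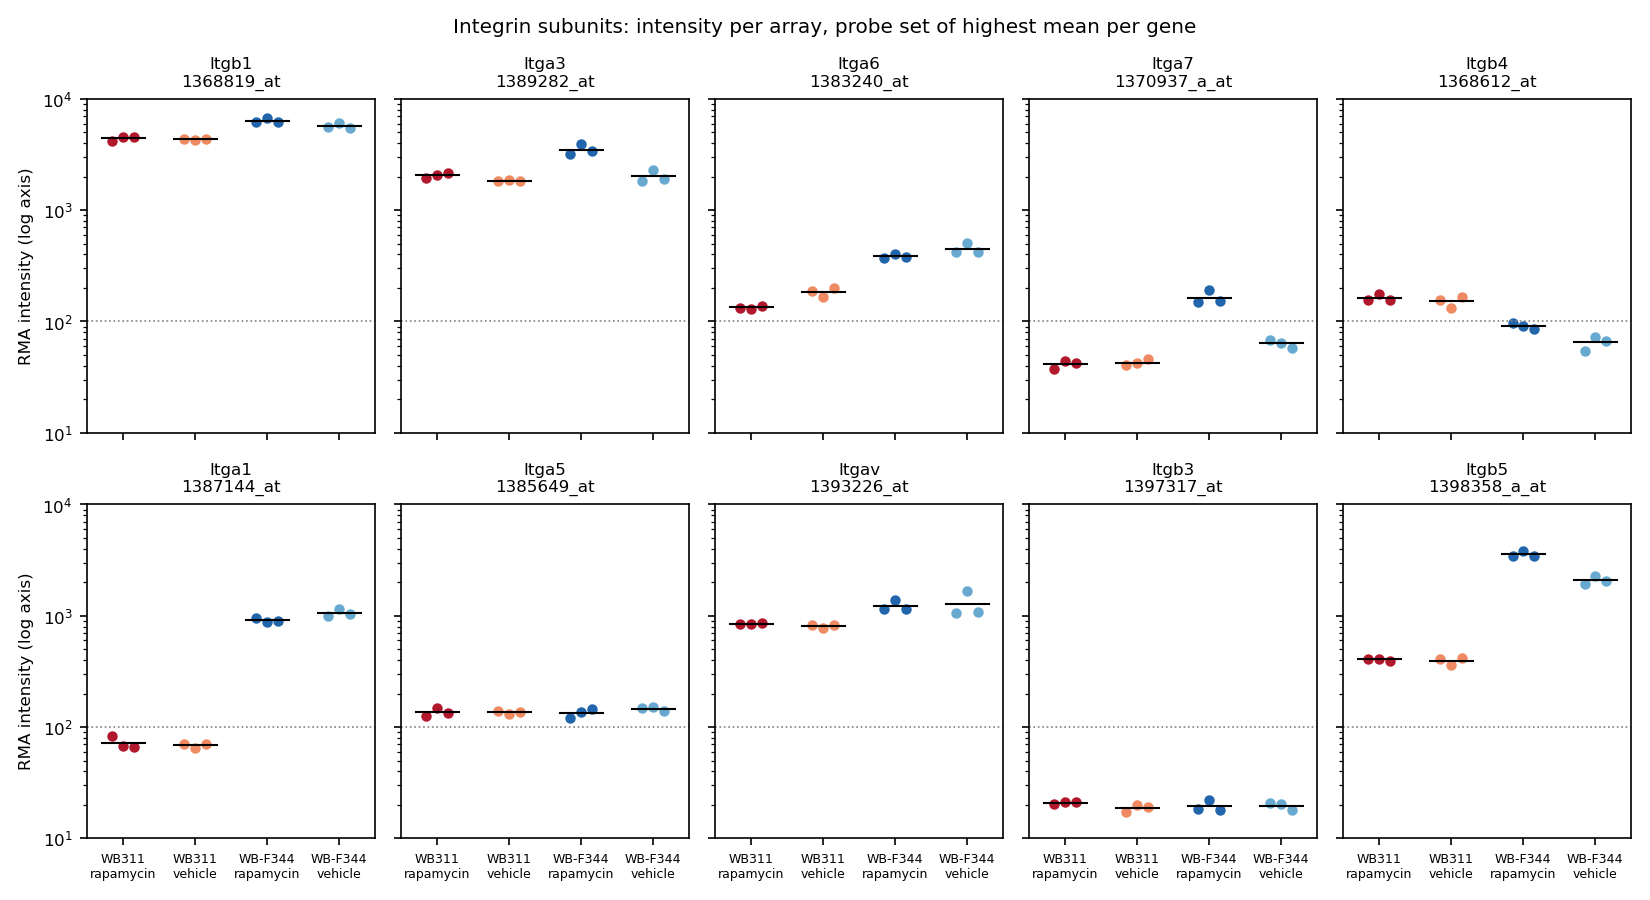
RMA intensity (log axis) of 1 probe set per integrin gene, the one of the highest mean, on each of the 3 plates (points) of the 4 groups, with the group mean as a bar and a dotted line at 100. Itga7, Itga3 and Itgb5 are higher with rapamycin in WB-F344, Itga1 and Itgb5 are far lower in WB311, Itgb4 is higher in WB311, and Itgb3 lies near 20 in every group.

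The first comparison asked which integrin subunits changed with rapamycin in the sensitive line. In WB-F344 cells Itga7, Itga3, Itgb5 and Itgb1 were called higher with rapamycin, and no integrin subunit fell past the threshold. The Itgb1 call was lost under several settings. Of 14 integrin probe sets tested, 5 were called, all higher, against 23% of all 13261 probe sets tested being called and 7.74% being called higher and 15.3% lower. The plates of the groups did not overlap for 8 of the 14 and for 34.3% of all probe sets. Over all probe sets, 66.4% of those called in this comparison were lower with rapamycin, a share that was 51.8% after cyclic loess normalization between arrays. The median log2 change was 0.08 over the integrin probe sets tested and -0.05 over all probe sets tested.

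Itga7, the laminin receptor chain best known from skeletal and cardiac muscle, showed the largest of these rises. Its probe set 1370937_a_at read 148, 190.3 and 152 in rapamycin-treated plates, against 68.6, 63.6 and 58.1 in vehicle plates. Every rapamycin plate lay above every vehicle plate, and the rise was 2.57-fold (log2 change 1.36, SE 0.11, limma adjusted p = 8.36e-06). Its mean reached 100 only in WB-F344 with rapamycin, so it entered each of its tests and counts through the group where it was high. With the intensity filter dropped, the limma adjusted p of this rise was 1.92e-05. A further probe set of Itga7, 1388240_a_at, stayed under 100, with 83.5, 73.2 and 62.1 in rapamycin plates and 37.8, 32.4 and 32.2 in vehicle plates. Its log2 change was 1.09 (SE 0.13), with an adjusted p of 2.0e-04 by limma when the intensity filter was dropped, so both of these probe sets moved alike. The last one, 1371214_at, averaged 20.5 ± 2.81 with rapamycin and 19.4 ± 1.31 with vehicle (SD, n = 3 each) and did not follow them.

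Itga3, whose product joins with Itgb1 to bind the laminins of epithelial basement membranes, was measured by 1389282_at alone. It read 3169, 3900 and 3402 in rapamycin plates, against 1822, 2310 and 1895 in vehicle plates. The groups did not overlap, and the rise was 1.74-fold (log2 change 0.80, SE 0.10, limma adjusted p = 1.63e-04).

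Itgb5, the partner of Itgav in a vitronectin receptor, rose in both of its probe sets that were tested. With 1398358_a_at it read 3413, 3792 and 3477 in rapamycin plates, against 1945, 2259 and 2059 in vehicle plates, a 1.71-fold rise (log2 change 0.77, SE 0.08, limma adjusted p = 5.52e-05). With 1370802_at it read 639.7, 776 and 646 in rapamycin plates, against 454, 575 and 418 in vehicle plates. Neither pair of groups overlapped, and the second probe set changed by 0.52 on the log2 scale (SE 0.16, limma adjusted p = 0.0288). That call was lost, with limma adjusted p of 0.0774, 0.107, 0.0827 and 0.0523, when vehicle plate 1, vehicle plate 3, rapamycin plate 2 or rapamycin plate 3 was left out. It was also lost with no filter on intensity (limma adjusted p = 0.0567) and with only the 2 groups compared (limma adjusted p = 0.0532). The methods' t-test lost it as well, with adjusted p = 0.149 for equal and 0.195 for unequal variances. The third Itgb5 probe set, 1396133_at, was not tested and read 51.2, 105 and 44.6 with rapamycin and 42.5, 70.3 and 40 with vehicle, its highest value in each group being that of plate 2.

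Itgb1, the beta chain common to most of these receptors, had a smaller rise that only 1 of its probe sets called. Probe set 1387346_at read 3997, 3517 and 3996 with rapamycin, against 3299, 2878 and 3236 with vehicle (log2 change 0.29, SE 0.08, limma adjusted p = 0.016). Probe set 1368819_at read 6157, 6763 and 6211 with rapamycin, against 5542, 6128 and 5447 with vehicle, without overlap, but its log2 change of 0.16 (SE 0.07, limma adjusted p = 0.122) did not pass. The call of 1387346_at was lost when rapamycin plate 1 (limma adjusted p = 0.0602), rapamycin plate 3 (limma adjusted p = 0.061) or vehicle plate 2 (log2 change 0.23, under the fold threshold) was left out. Only the 2 groups compared (limma adjusted p = 0.0927) or each array centred on its median (log2 change 0.25, under the fold threshold) lost it too. So did the methods' t-test, with adjusted p = 0.133 for equal and 0.161 for unequal variances.

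The other subunits did not pass the test in WB-F344 cells. Itgb4, the hemidesmosome chain, was under 100 in both groups and so was not tested there, with 96.5, 91.4 and 86.2 in rapamycin plates and 54.8, 72.4 and 67 in vehicle plates. These did not overlap, and its log2 change of 0.51 (SE 0.12) had a limma adjusted p of 0.0138 with the filter dropped. Itga1, the collagen receptor chain, read 947, 882 and 899.8 with rapamycin and 1003, 1143 and 1045 with vehicle, a log2 change of -0.22 (95% interval -0.43 to -0.02, limma adjusted p = 0.0983). The 3 Itgav probe sets had log2 changes between -0.02 and 0.05, and Itga5, the fibronectin receptor chain, had one of -0.13 (95% interval -0.32 to 0.05). Itga6, the chain shared by the Itgb1 and Itgb4 laminin receptors, had a log2 change of -0.21 with 1383240_at (limma adjusted p = 0.108), of -0.30 with 1393558_at (limma adjusted p = 0.202) and of 0.11 with 1371186_at (limma adjusted p = 0.811). With the plate number within each line as a block, 1393558_at passed as lower (limma adjusted p = 0.0184), as it did without vehicle plate 2 (log2 change -0.45, limma adjusted p = 0.0384).

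**Figure D2:**
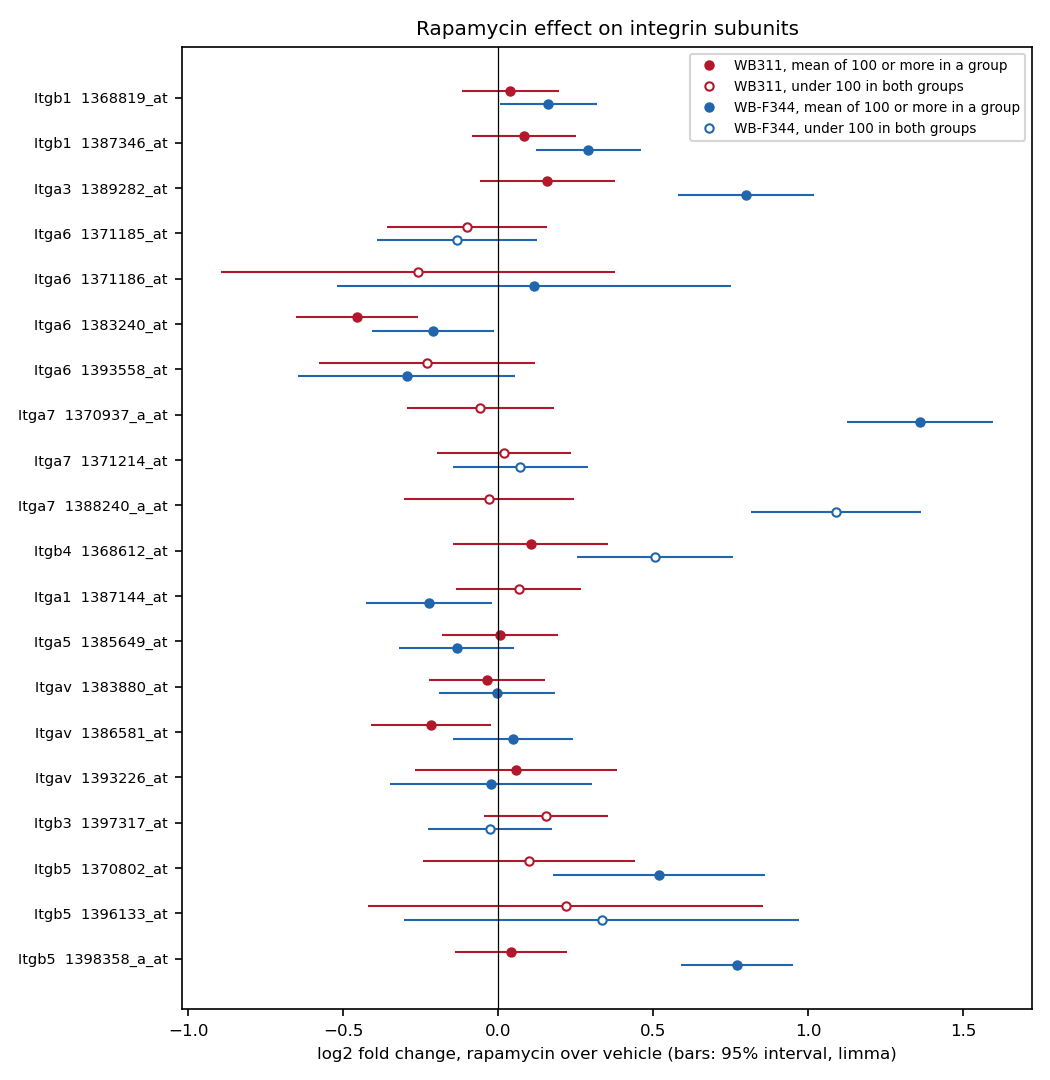
Log2 fold change with rapamycin over vehicle (points) and 95% limma interval (bars) for all 20 integrin probe sets, WB311 above WB-F344 in each row, with open points where the mean was under 100 in both groups. In WB311 the largest shift among tested probe sets is that of Itga6, which fell by 0.46, and in WB-F344 Itga7 reaches 1.36, Itga3 0.80 and Itgb5 0.77.

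In the resistant line rapamycin moved 1 integrin subunit past the threshold, Itga6, and it was lower. Of 10 integrin probe sets tested in WB311 cells 1 was called, against 3.35% of all 13135 probe sets tested, with 1.71% higher and 1.64% lower. The share over all probe sets depends on the spread pooled over the lines. The calls were 440 in WB311 and 3055 in WB-F344, but 1140 and 1853 with only the 2 groups of each line fitted. The plates of the groups did not overlap for 4 of the 10 integrin probe sets and for 38.7% of all. The median log2 change was 0.04 over the integrin probe sets tested and 0.01 over all. Itga6 with 1383240_at read 133, 129 and 138 in rapamycin plates, against 186, 166 and 199 in vehicle plates. The groups did not overlap, and the log2 change was -0.46 (SE 0.09, limma adjusted p = 0.018). The call was lost when any plate of the comparison other than vehicle plate 2 was left out, with limma adjusted p of 0.0708, 0.082 and 0.0561 without rapamycin plate 1, 2 or 3 and of 0.08 and 0.0794 without vehicle plate 1 or 3. The other Itga6 probe sets were under 100 in WB311, and 1393558_at read 53.8, 58 and 56.2 with rapamycin and 70.7, 57.9 and 69 with vehicle.

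The subunits that rose in WB-F344 had small changes in WB311. Itga3 read 1933, 2070 and 2149 with rapamycin, against 1830, 1864 and 1812 with vehicle, without overlap, but its log2 change of 0.16 (95% interval -0.06 to 0.38, limma adjusted p = 0.484) did not pass. Itgb5 with 1398358_a_at read 409.7, 411 and 393 with rapamycin and 405, 358 and 419.9 with vehicle, a log2 change of 0.04 (95% interval -0.14 to 0.22). Itga7 with 1370937_a_at was under 100, at 37.1, 44.2 and 42.1 with rapamycin and 40.6, 42.1 and 45.6 with vehicle. Itgb1 changed by 0.04 and 0.08 on the log2 scale with its 2 probe sets, Itgb4 by 0.10 and Itga5 by 0.01. Itgav had log2 changes of -0.22 with 1386581_at (limma adjusted p = 0.237), of -0.04 with 1383880_at and of 0.06 with 1393226_at, and none of these passed.

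Whether the effect of rapamycin differed between the lines was tested as an interaction, the log2 effect in WB311 minus that in WB-F344. Of 15 integrin probe sets tested 3 were called, those of Itga7, Itga3 and Itgb5, all with the smaller effect in WB311. Over all 14214 probe sets 10% were called, 6.87% higher and 3.15% lower. The lower calls were 31.5% of all calls, and 44.4% of them after cyclic loess normalization. The median difference was -0.25 over the integrin probe sets tested and 0.06 over all.

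The difference for Itga7 with 1370937_a_at was -1.42 (SE 0.15, 95% interval -1.75 to -1.08, limma adjusted p = 2.23e-04, and 4.71e-04 with the filter dropped). Its probe set 1388240_a_at, under 100 in every group, gave -1.12 (95% interval -1.51 to -0.73, limma adjusted p = 0.00429 with the filter dropped). The difference for Itgb5 with 1398358_a_at was -0.73 (SE 0.12, 95% interval -0.99 to -0.48, limma adjusted p = 0.00217). With 1370802_at it was -0.42 (95% interval -0.90 to 0.06, limma adjusted p = 0.282), which passed with the plate number within each line as a block (limma adjusted p = 0.0198). The level of that probe set in WB311 was under 100, with 41.5, 51.8 and 61 with rapamycin and 41.4, 49 and 52.7 with vehicle. The difference for Itga3 was -0.64 (SE 0.14, 95% interval -0.95 to -0.33, limma adjusted p = 0.0134). For Itga6, which passed in WB311 and not in WB-F344, the difference with 1383240_at was -0.25 (95% interval -0.52 to 0.03, limma adjusted p = 0.275), so its effects were not shown to differ.

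**Figure D3:**
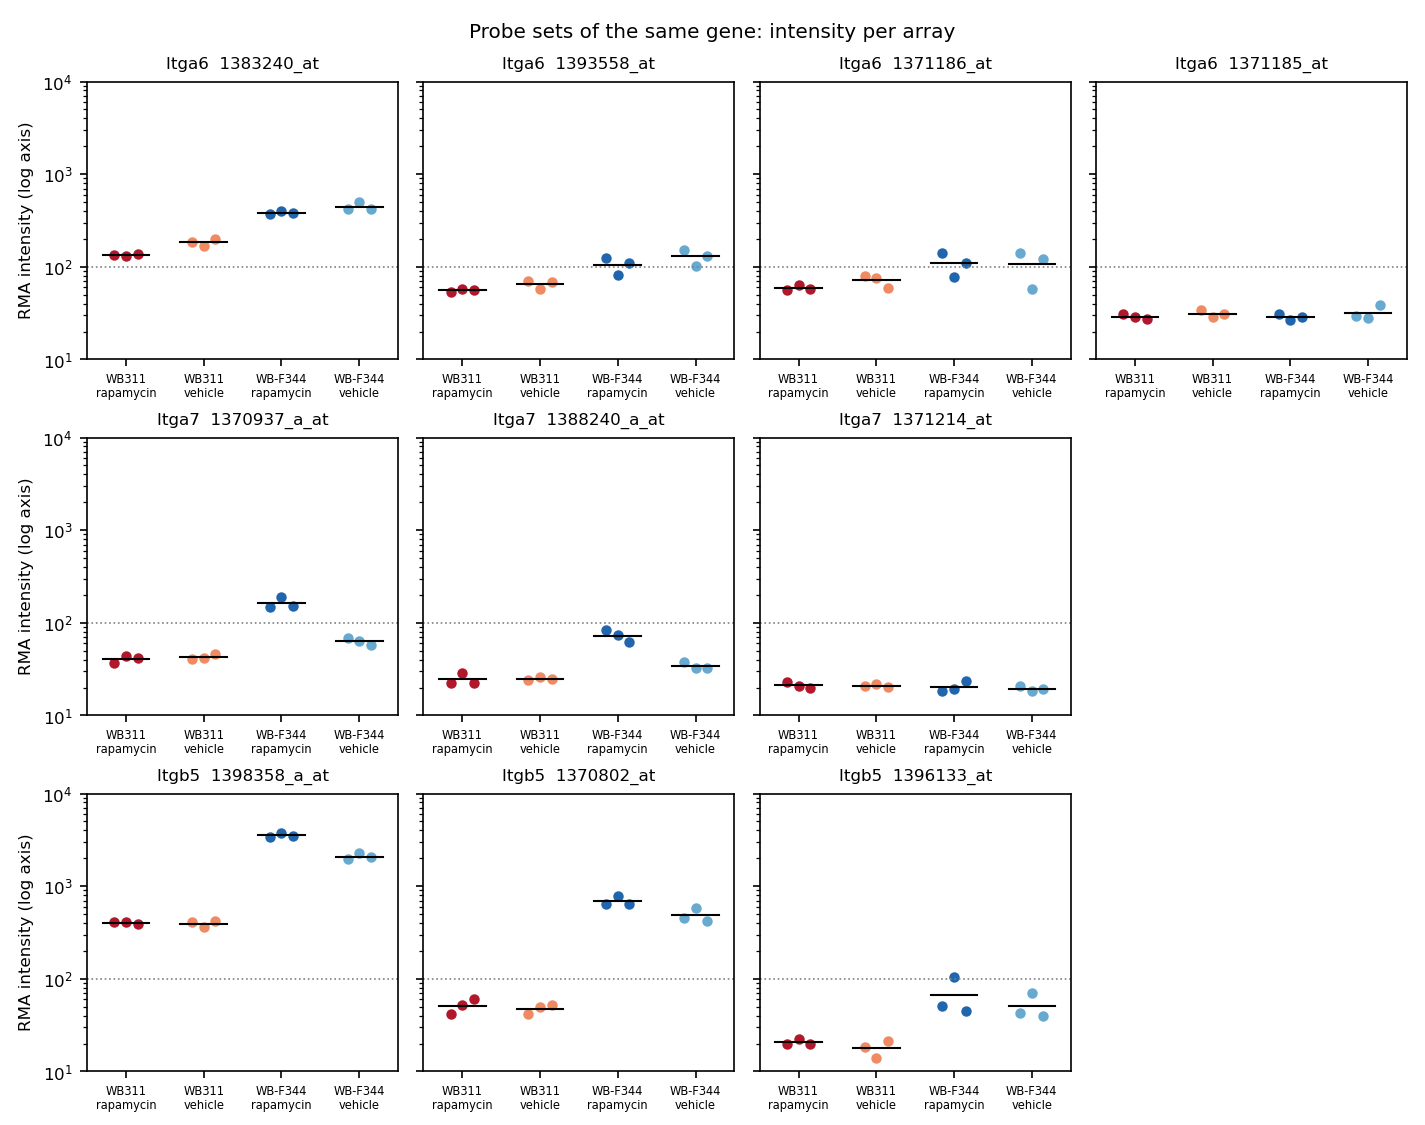
RMA intensity (log axis) per plate (points) with group means (bars) for every probe set of Itga6, Itga7 and Itgb5, and a dotted line at 100. The 2 brighter Itga7 probe sets move alike while 1371214_at stays near 20, and all 3 Itgb5 probe sets are lower in WB311, with plate 2 of WB-F344 the highest for 1396133_at and the lowest for Itga6 1371186_at in both treatments.

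Probe sets of 1 gene did not all carry the same signal. Across the 12 arrays the log2 values of the Itga7 probe sets 1370937_a_at and 1388240_a_at correlated at Pearson r = 0.98, while 1371214_at correlated with them at -0.18 and -0.21. The Itgb5 probe sets correlated at 0.93 to 0.99, the Itgav probe sets at 0.60 to 0.91 and the Itgb1 pair at 0.87. Itga6 was not uniform either, with 0.90 between 1383240_at and 1393558_at but 0.08 to 0.38 between 1371185_at and the others. These values describe 12 arrays that share 4 groups. Itga6 1371185_at averaged between 28.9 and 31.9 in all groups, so it gave no level to follow.

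Between the lines with vehicle, 5 of the 8 integrin genes tested were called lower in WB311, and Itgb4 alone among them was called higher. Of 14 integrin probe sets tested 11 were called, 10 lower and 1 higher, against 56% of all 13871 probe sets tested, with 28.1% lower and 27.9% higher. The groups did not overlap for 12 of the 14 and for 66.4% of all probe sets. The median log2 difference, WB311 minus WB-F344, was -0.51 over the integrin probe sets tested and 0.02 over all. By gene, Itga1, Itgb5, Itga6, Itgav and Itgb1 were lower, Itgb4 was higher, and Itga3 and Itga5 did not pass.

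Itga1, the alpha chain of a receptor for collagens, had the largest difference. It read 69.9, 64.9 and 71 in WB311, under the level of 100 on every plate, against 1003, 1143 and 1045 in WB-F344. The log2 difference was -3.95 (SE 0.09, limma adjusted p = 3.54e-12), with WB-F344 15.5-fold higher. The fold is one of normalized intensities, with WB311 under 100, and is not a ratio of RNA amounts.

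Itgb5 was lower in WB311 with all 3 probe sets, whose groups did not overlap. Its 1398358_a_at read 405, 358 and 419.9 in WB311, against 1945, 2259 and 2059 in WB-F344 (log2 difference -2.40, SE 0.08, limma adjusted p = 1.12e-10). Its 1370802_at read 41.4, 49 and 52.7 in WB311, against 454, 575 and 418 in WB-F344 (log2 difference -3.33, SE 0.16, limma adjusted p = 2.18e-09). Its alpha partner Itgav was lower by less, with log2 differences of -0.55, -0.29 and -0.61 for 1383880_at, 1386581_at and 1393226_at. With 1383880_at Itgav read 434, 361 and 413 in WB311, against 566, 630.1 and 564 in WB-F344 (limma adjusted p = 1.37e-04). The call of 1386581_at was lost without WB-F344 vehicle plate 1 (log2 difference -0.25). The methods' t-test lost it too, with adjusted p = 0.0572 for equal and 0.0927 for unequal variances. That test also lost 1393226_at, with adjusted p = 0.0887 and 0.172. Probe set 1393226_at read 1684 on WB-F344 vehicle plate 2, against 1064 and 1071 on plates 1 and 3. Without plate 2 its log2 difference was -0.39, and it was still called.

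The laminin receptor chains did not share 1 direction. Itga6 with 1383240_at read 186, 166 and 199 in WB311, against 419, 503 and 420.3 in WB-F344 (log2 difference -1.28, SE 0.09, limma adjusted p = 9.95e-08), and 1393558_at was also lower (log2 difference -0.96, limma adjusted p = 2.23e-04). Its 1371186_at read 80.2, 76 and 59.2 in WB311 and 140.2, 57.3 and 121 in WB-F344, where plate 2 was the lowest. It was not called (log2 difference -0.48, limma adjusted p = 0.176) but was called lower without that plate (log2 difference -0.87, limma adjusted p = 0.00284). Itgb4, the beta chain that pairs only with Itga6, went the other way, at 156, 132 and 168 in WB311 against 54.8, 72.4 and 67 in WB-F344. The groups did not overlap, and the log2 difference was 1.23 (SE 0.12, limma adjusted p = 1.38e-06, and 2.86e-06 with the filter dropped). Itga3 read 1830, 1864 and 1812 in WB311 and 1822, 2310 and 1895 in WB-F344, with overlap and a log2 difference of -0.12 (95% interval -0.34 to 0.10). Itga7 was under 100 in both lines and was not tested, with means of 42.8 ± 2.58 in WB311 and 63.5 ± 5.26 in WB-F344 (SD, n = 3 each) for 1370937_a_at. Its plates did not overlap between the lines, and with the filter dropped it was lower in WB311 (log2 difference -0.57, limma adjusted p = 0.00119), as was 1388240_a_at (log2 difference -0.45, limma adjusted p = 0.0139).

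Itgb1 was moderately lower in WB311. Its 1368819_at read 4320, 4275 and 4381 in WB311, against 5542, 6128 and 5447 in WB-F344 (log2 difference -0.40, SE 0.07, limma adjusted p = 4.04e-04). Its 1387346_at had a log2 difference of -0.30 (limma adjusted p = 0.005), which without WB-F344 vehicle plate 1 was -0.26 and under the fold threshold. The methods' t-test of unequal variances also lost this call (adjusted p = 0.0752). Itga5 read 139, 131 and 136 in WB311 and 147, 153 and 139 in WB-F344, a log2 difference of -0.11 (95% interval -0.30 to 0.07).

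**Figure D4:**
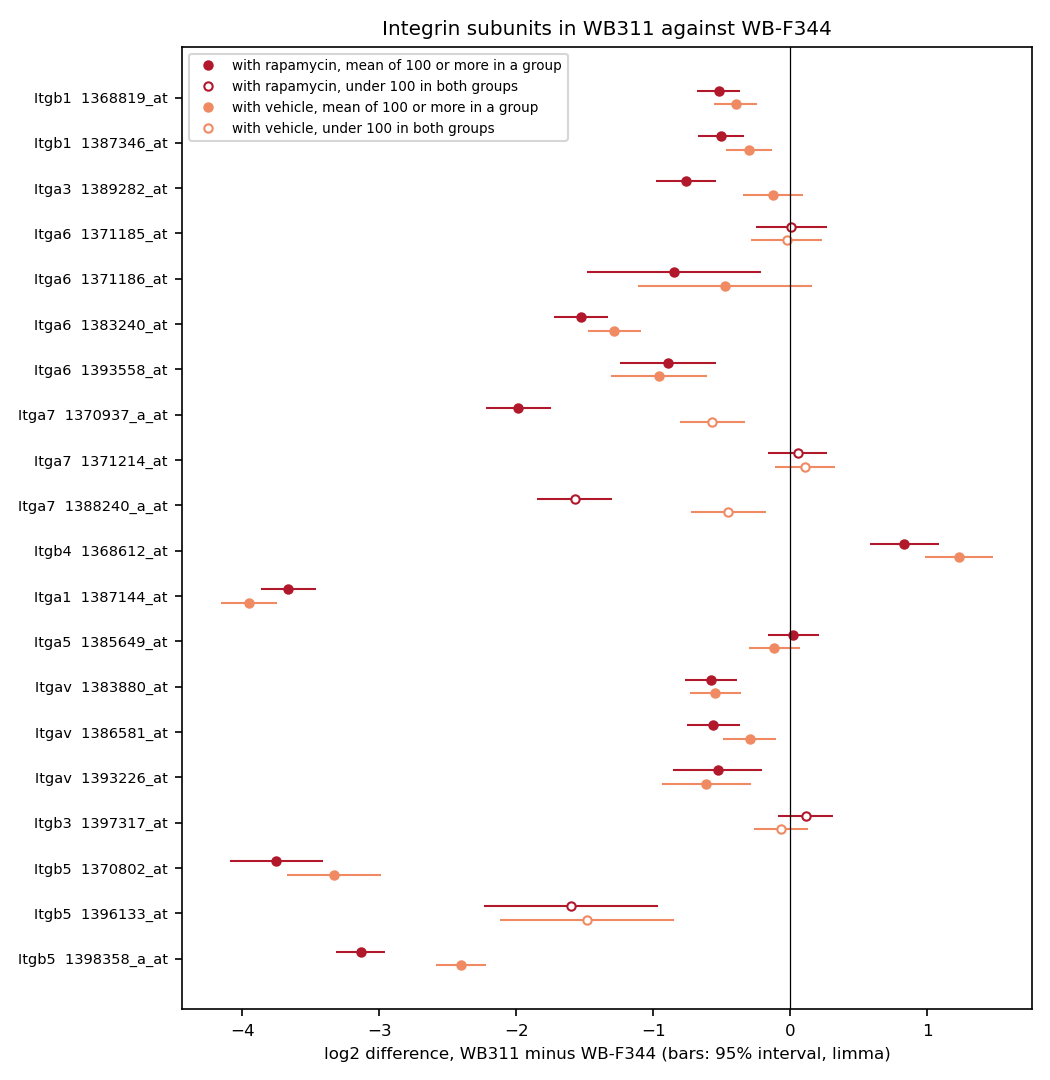
Log2 difference, WB311 minus WB-F344 (points), and 95% limma interval (bars) for all 20 integrin probe sets, with rapamycin above vehicle in each row and open points where the mean was under 100 in both groups. Itga1 and Itgb5 lie farthest to the left, Itgb4 is the only gene to the right beyond its interval, and Itga3 and Itga7 lie farther left with rapamycin than with vehicle.

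With rapamycin in both lines, 14 of 15 integrin probe sets tested were called, 13 lower in WB311 and 1 higher, against 59.3% of all 13949 probe sets tested, with 26% lower and 33.3% higher. The groups did not overlap for 14 of the 15 and for 72.3% of all probe sets. The median log2 difference was -0.76 over the integrin probe sets tested and 0.06 over all. This comparison uses other plates than the one with vehicle, but the same lines. Itga3, not called between the vehicle groups, and Itga7, not tested there but lower with the filter dropped, were both called lower in WB311. For Itga3 the log2 difference was -0.76 (SE 0.10, limma adjusted p = 2.58e-05). For Itga7 with 1370937_a_at it was -1.99 (SE 0.11, limma adjusted p = 7.44e-09, and 1.63e-08 with the filter dropped). Itga1 differed by -3.66 (WB-F344 12.7-fold higher), with 83, 67 and 66.4 in WB311 against 947, 882 and 899.8 in WB-F344. Itgb5 differed by -3.14 with 1398358_a_at and by -3.75 with 1370802_at. Itgb4 remained higher in WB311, at 156, 177 and 156 against 96.5, 91.4 and 86.2 in WB-F344 (log2 difference 0.83, SE 0.12, limma adjusted p = 3.94e-05). With the filter dropped, the limma adjusted p of Itgb4 was 7.82e-05. Itga6 1371186_at was called here (log2 difference -0.85, limma adjusted p = 0.0223), but not without WB-F344 plate 3 (limma adjusted p = 0.0574) or WB311 plate 1 or 3 (limma adjusted p = 0.0608 and 0.0569). Itga5 was the 1 tested gene that did not pass, with a log2 difference of 0.02 (95% interval -0.16 to 0.21).

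Itgb3, the vitronectin receptor chain of platelets and endothelial cells, was not detected above 100 in any group. It read 20.4, 21 and 21.1 in WB311 with rapamycin, 17.3, 19.8 and 19.3 in WB311 with vehicle, 18.2, 21.9 and 18 in WB-F344 with rapamycin and 20.6, 20.3 and 18 in WB-F344 with vehicle. Its level gave no change to read. Of a list of 16 further integrin subunits, 12 had a probe set and 1 reached 100, Itgae, the chain known from lymphocytes in epithelia. Itgae averaged 256 ± 27.3 in WB311 with vehicle and 320.5 ± 21 in WB-F344 with vehicle (SD, n = 3 each), and was called lower in WB311 (log2 difference -0.33, limma adjusted p = 0.00794). Of all probe sets 28.1% were called lower in that comparison. Between the lines with rapamycin Itgae was not called (log2 difference -0.21). The leukocyte chains Itgam and Itgb2 reached at most 41.3 on any array.

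Integrin ligands on the array were 31 of a list of 34. In WB-F344 with rapamycin 5 of 19 tested were called higher and 4 lower, against 7.74% and 15.3% of all probe sets, with a median log2 change of 0.07 for the ligands. Spp1, osteopontin, a ligand of the Itgav receptors, read 1098, 912 and 1056 with rapamycin and 302, 245 and 299 with vehicle (log2 change 1.86, limma adjusted p = 3.47e-07). Lama3, a laminin chain bound by Itga3 and Itga6 receptors, read 418, 426 and 422 with rapamycin and 202, 181 and 164 with vehicle (log2 change 1.22, limma adjusted p = 1.2e-05). Col3a1, a fibrillar collagen, fell by 0.90 on the log2 scale and Nid1, nidogen, fell by 1.11. In WB311 with rapamycin 3 of 19 were called higher, Ccn1 (log2 change 1.01), Ccn2 (0.80) and Fn1, fibronectin (0.38), and 1 lower, Spp1 (-0.51, limma adjusted p = 0.0127), against 1.71% and 1.64% of all probe sets. For the difference of the rapamycin effect, 5 of 21 ligands tested were called higher and 2 lower, against 6.87% and 3.15% of all probe sets. The 2 lower were Spp1 (-2.37) and Lama3 (-1.14). The median difference was 0.18 over the ligands tested and 0.06 over all. Between the vehicle groups 16 of 21 ligands were lower in WB311 and 4 higher, against 28.1% and 27.9% of all probe sets, with a median log2 difference of -0.99. Among them were Col1a1 (-5.98), Col3a1 (-4.75), Col1a2 (-4.20) and Ccn1 (-4.10). With rapamycin 17 were lower and 3 higher, against 26% and 33.3% of all.

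**Figure D5:**
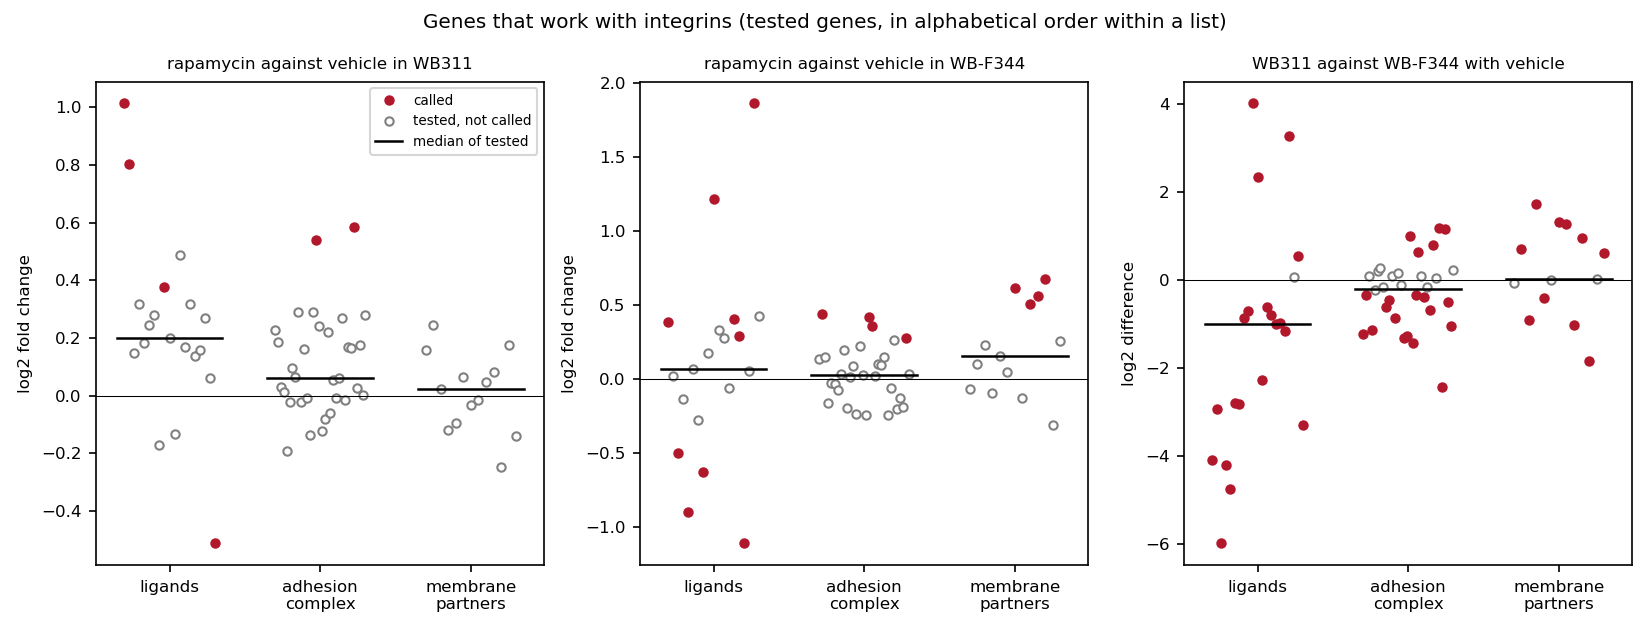
Log2 fold change with rapamycin in WB311 (left) and WB-F344 (middle) and log2 difference WB311 minus WB-F344 with vehicle (right) for each tested gene of the integrin ligands, the intracellular adhesion complex and the membrane partners, filled where called, with the list's median as a bar. Each panel has its own vertical scale, and the ligands reach -5.98 for Col1a1 in the right panel.

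The intracellular adhesion complex, the talins, kinases and actin linkers that gather at the tails of integrins, had 36 of 38 genes on the array. In WB-F344 with rapamycin 4 of 30 tested were called, all higher: Actn4, an actin crosslinker (log2 change 0.44), Ptk2, the focal adhesion kinase (0.36), Vcl, vinculin (0.28), and Parvb (0.42). Of all probe sets 23% were called in this comparison, 7.74% higher and 15.3% lower. The list's share called in either direction was no larger than that of all probe sets. In WB311 with rapamycin 2 of 32 were called, both higher, against 3.35% of all probe sets, with 1.71% higher and 1.64% lower. They were Tns1 (0.58), which links integrin tails to actin, and Nedd9 (0.54), a docking protein of adhesion signaling. For the difference of the rapamycin effect, 3 of 32 tested were called higher and 1 lower, against 6.87% and 3.15% of all probe sets. Tns1 (0.78) was among those higher, and Ptk2 (-0.44) was the 1 lower. Between the vehicle groups 15 of 32 were lower in WB311 and 5 higher, against 28.1% and 27.9% of all probe sets, with the lowest p for Tns1 (-2.44), Actn1 (-1.21), Ptk2 (-1.42) and Vcl (-1.03). With rapamycin 12 were lower and 7 higher, against 26% and 33.3% of all, Tln2, a talin, among those higher (1.78).

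Of 14 membrane and hemidesmosome partners, 13 were tested. In WB-F344 with rapamycin 4 were called, all higher, against 23% of all probe sets called, with 7.74% higher and 15.3% lower. They were Cd82, a tetraspanin (log2 change 0.61), Dst, dystonin (0.51), Erbin, which binds Itgb4 complexes (0.56), and Plaur, the urokinase receptor (0.68). In WB311 with rapamycin 0 were called by limma, and 1 of the 13 had an unadjusted limma p under 0.05, while 3.35% of all probe sets were called. For the difference of the rapamycin effect, 3 of 13 tested were called, all lower, against 6.87% of all probe sets higher and 3.15% lower. They were Cd82 (-0.64), Slc3a2, which binds beta chain tails (-0.40), and Plaur (-0.93). Between the vehicle groups 6 were higher in WB311, among them Cd47 (1.74) and Cd82 (1.33), and 4 lower, among them Cd151 (-0.90), the tetraspanin that accompanies Itga3 and Itga6, against 27.9% and 28.1% of all probe sets.

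Markers of some other cell types differed between the lines, in some lists through 1 tested gene. The hepatocyte and leukocyte markers tested, Ttr and Cd14, were not called between the vehicle groups. Of 6 mesenchymal markers 4 were tested and all 4 were lower in WB311 with vehicle, Tagln by -6.19, Col1a1 by -5.98, Acta2 by -1.67 and Vim by -0.31 on the log2 scale. Of all probe sets tested 56% were called between the vehicle groups, 28.1% lower and 27.9% higher. The summed intensity of all 6 mesenchymal markers lay between 12383 and 12639 in WB311 with vehicle and between 31927 and 37430 in WB-F344 with vehicle. The biliary keratin Krt7 read 68.6, 69 and 91.9 in WB311 with vehicle and 5005, 6248 and 5348 in WB-F344 with vehicle, and the endothelial receptor Tek read 1072, 973 and 940 in WB311 and 45.4, 26.8 and 39.1 in WB-F344. Of the biliary and progenitor markers 2 of 4 reached 100 in a group, Krt7 and Krt19, and they differed in opposite directions. Krt19 averaged 109.9 ± 14.6 in WB311 with vehicle and 23.1 ± 4.97 in WB-F344 with vehicle (SD, n = 3 each), a log2 difference of 2.26 (limma adjusted p = 3.97e-08). The summed intensity of all 4, of which Krt7 made up most in WB-F344, was 203 to 256 in WB311 with vehicle and 5067 to 6299 in WB-F344 with vehicle. Of the endothelial markers 1 of 3 did, Tek, and the sum of all 3 was 973 to 1105 in WB311 and 59.8 to 78.1 in WB-F344. Of the skeletal muscle markers 1 of 5 did, Des, which read 154, 177 and 150.5 in WB-F344 with rapamycin and 125, 144 and 132 in WB-F344 with vehicle, without overlap (log2 change 0.26, limma adjusted p = 0.0694). Des was called lower in WB311, by a log2 difference of -0.66 with vehicle and of -0.99 with rapamycin, and the other muscle markers, Myod1 among them, were under 100. The summed intensity of the 5 was 158 to 171 in WB311 with rapamycin, 167 to 182 in WB311 with vehicle, 247 to 263 in WB-F344 with rapamycin and 217 to 230 in WB-F344 with vehicle. Of the hepatocyte markers 1 of 5 did, Ttr, and the sums of that list lay between 194 and 226 on all arrays. The hepatocyte marker Alb stayed between 30.9 and 36.7, and Ptprc of leukocytes, Pecam1 of endothelium and Myod1 of muscle reached at most 24.3 on any array. Cd14, the 1 leukocyte marker of 5 at 100 or more, read 1181, 981 and 1207 in WB-F344 with rapamycin and 610.4, 501 and 587 in WB-F344 with vehicle. The part of these markers in the integrin differences was not tested.

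For the 3 subunits whose rapamycin effect differed between the lines, the genes most alike across the 12 arrays were ranked by Pearson r of log2 values. They were Il1r1 (0.99), Sorbs2 (0.98) and Ankrd50 (0.97) for Itga3, Sat1 (0.99), Egr2 (0.98) and Bace2 (0.98) for Itga7, and Jam3 (0.998), C10h17orf58 (0.997) and Wipi1 (0.997) for Itgb5. The arrays share 4 groups, so these values are descriptions only.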

How the data were processed

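Total RNA from 3 plates per line and treatment was hybridised to 12 Affymetrix Rat Genome 230 2.0 arrays. The authors deposited linear intensities after Robust Multiarray Average (RMA) normalization, whose version is not given in the sources used here. Probe sets were named from the platform annotation: 20826 of 31042 had 1 symbol, 436 several and 9780 none. For the present values, log2 intensities of all probe sets on 12 arrays were fitted as 4 groups with limma 3.58.1 in R 4.3.3, without covariates. The spread of a probe set was pooled over the 4 groups, though the lines differed in it. The median SD of log2 values was 0.064 in WB311 with rapamycin and 0.078 with vehicle. In WB-F344 it was 0.13 with rapamycin and 0.154 with vehicle. The study's methods used a two-sample t-test, which is an alternative here. The script was tested on simulated data. RMA shares 1 intensity distribution across arrays, so changes are relative to the whole array, and the number of arrays limits the precision.

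Every integrin probe set is described. For each gene list, up to 4 called genes of smallest p per comparison could be named, by the probe set of highest mean, and for subunits called in the interaction, the 3 genes of highest Pearson r. Itgam, Itgb2 and the single markers printed were picked with their values in view. The members and lists were chosen with earlier results of these data known. Other lists of markers were platelets, with 0 of 3 genes at 100, and skeletal muscle, with 1 of 5, Des.

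Plates of the same number were checked as pairs: over all probe sets, Pearson r of their deviations from the group means was -0.14 to -0.00026 for WB311, 0.56 to 0.87 for WB-F344 and -0.27 to 0.20 between lines. The pairing comes from the plate numbers in the labels and, in WB-F344, is carried by plate 2.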

Additional observations from a re-analysis of the deposited data

Results flagged for a closer look

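The rapamycin effect, WB311 minus WB-F344 on the log2 scale, differed between the lines by limma's interaction test for 3 integrin subunits: it was -0.64 for Itga3 (1389282_at), -1.42 for Itga7 (1370937_a_at) and -0.73 for Itgb5 (1398358_a_at). In WB311 Itga7 was under 100 with both treatments, at 41.1 ± 3.66 with rapamycin and 42.8 ± 2.58 with vehicle (SD, n = 3 each). No test for outlying plates was run on the groups of 3, but each plate was left out in turn.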

How the results depend on the processing

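No called integrin result reversed under the alternatives, and 1193 of 1236 values of single probe sets kept their side of the threshold, while 38 lost and 5 gained a call. The interaction calls of Itga3, Itga7 and Itgb5 1398358_a_at held under all 21 alternatives run for the interaction, with ranges of -0.75 to -0.56, -1.49 to -1.30 and -0.81 to -0.68. Of these alternatives, 12 left out 1 plate each. The methods' t-tests and the fit of only the 2 groups compare 2 groups and were not run for the interaction. For rapamycin in WB-F344, the count of all calls (3055) was 1046 with the methods' t-test of equal variances, 254 with unequal variances and 1853 with only the 2 groups compared, and the integrin count (5) was 3, 1 and 3. The unequal-variance test dropped Itga3 (adjusted p = 0.076) and Itga7 (adjusted p = 0.0532). For rapamycin in WB311, the count (440) was 289 with no intensity filter, 1112 with the fold filter before the correction, 1019 with the replicate block within lines, 5 with the unequal-variance test, 1140 with only the 2 groups and 1188 without both WB-F344 plates numbered 2. The integrin count (1) was 0 with either form of the methods' t-test. For the interaction, the count (1424) was 2605 with the fold filter first, 2761 with the replicate block within lines and 2527 without both plates numbered 2. Between the vehicle groups the count (7772) was 4831 with the unequal-variance test. Leaving out 1 plate gave 2449 to 3653 and, for integrins, 3 to 5 calls with rapamycin in WB-F344, 165 to 217 and 0 to 1 in WB311, whichever of its plates was left out, 968 to 1775 and 3 to 3 for the interaction, 7305 to 7987 and 9 to 12 between the lines with vehicle, and 7867 to 8338 and 12 to 14 with rapamycin. The replicate block within lines gave 6 integrin calls with rapamycin in WB-F344, 1 in WB311 and 4 for the interaction, and the block over both lines changed no integrin count. It could not be fitted within lines for the line differences. Without both WB-F344 plates numbered 2 the integrin counts were 5, 1, 3, 12 and 14. Fitting only the tested probe sets, chosen after seeing the data, gave 3000, 488, 1517, 7699 and 8208 calls and the main integrin counts. Signal over background limits Itgb3, Itga7 in WB311 and the dimmest Itga6 and Itgb5 probe sets.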
